A study of Mus musculus with 5 samples.

Results

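Transcription far from annotated genes was examined in windows of 10 kb, each on 1 strand of chromosomes 1 to 19, in nuclear run-on sequencing data of mouse embryonic stem cells and fibroblasts. A window was kept when it lay at least 10 kb from every GENCODE gene and when reads began at 50 or more distinct positions in at least 1 of the 2 cell types. Windows at 2 loci similar to ribosomal DNA, on chromosomes 17 and 13, were left out. All coordinates are of mm9. The rule gave 743 windows of 194918 that lay far enough from genes, out of 494448 windows on these chromosomes, and they fell in 661 distinct intervals of 10 kb. The windows were chosen by their read positions in these same 2 sets, so their levels and ratios are descriptions, and no test was made on them.

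The study mapped engaged RNA polymerase in both cell types by global run-on sequencing (GRO-seq), in which polymerases already on the DNA resume synthesis in isolated nuclei, and the RNA they add is tagged with Br-UTP, enriched and sequenced. MESC were V6.5 embryonic stem cells, a line of the cross C57Bl/6(f) x 129/Sv(m), at passages 12 to 14, grown on irradiated feeder cells with LIF, in 3 samples. MEF were fibroblasts of male E13.5 embryos of the same cross, at passage 2 and without LIF, in 2 samples. The reads of each cell type come as 1 pooled set with no sample name, so no value has a replicate check, and every interval given here covers counting error only.

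Run-on sequencing sees RNA as it is made, whether or not it is stable. Away from genes it is known to pick up short RNAs that start in both directions at enhancers and at unannotated promoters, long unannotated noncoding transcripts, genes of RNA polymerase III such as tRNA genes, and polymerase that runs on past the end of a gene. These sources leave different shapes: paired starts on both strands, long stretches on 1 strand, narrow stacks of reads, or a tail that joins a gene.

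The MESC set held 8616592 reads and the MEF set 6583644, and the loci similar to ribosomal DNA took 11.6% of the MESC reads and 16.4% of the MEF reads outside the mitochondrial genome. Markers of the labelled cells matched the labels: 4 embryonic stem cell genes summed to 1581 gene-body reads in MESC and 5 in MEF, and 5 fibroblast genes to 264 in MESC and 10909 in MEF. All 4 stem cell genes were at 3 or fewer reads in MEF. The reads of the fibroblast genes in MESC ranged between 1 and 158, with feeder cells named in the growth protocol, and their part in the windows was not tested. Of 5 macrophage markers, Cd68 had 0 reads in both sets, and the 5 summed to 16 reads in MESC and 222 in MEF. In bulk nuclei, fewer cells of a type and less RNA per cell cannot be told apart.

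The windows with the most uneven ratios show what such transcription looks like in sequence. The 300 bases with the most read positions are printed for the 3 highest and the 3 lowest MESC to MEF ratios among windows with at least 100 positions, ranked with 3 reads standing for any lower count. They are read 5′ to 3′ along the transcribed strand from mm9, in lower case, and capitals mark matches to fixed motifs on either strand. The first 3 belong to windows higher in MESC:
chr13:114515138-114515437, plus strand: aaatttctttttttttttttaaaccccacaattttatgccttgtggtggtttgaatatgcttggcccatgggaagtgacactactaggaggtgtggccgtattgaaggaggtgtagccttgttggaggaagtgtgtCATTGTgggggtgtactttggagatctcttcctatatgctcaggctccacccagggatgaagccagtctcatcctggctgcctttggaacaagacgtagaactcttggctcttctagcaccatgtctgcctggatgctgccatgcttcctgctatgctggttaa
chr13:19616735-19617034, minus strand: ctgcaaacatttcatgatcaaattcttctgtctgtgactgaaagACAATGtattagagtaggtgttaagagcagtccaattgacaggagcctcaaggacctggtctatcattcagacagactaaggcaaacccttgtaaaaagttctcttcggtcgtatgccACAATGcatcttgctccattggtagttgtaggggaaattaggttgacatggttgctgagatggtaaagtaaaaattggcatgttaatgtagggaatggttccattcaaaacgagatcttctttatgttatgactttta
chr13:31774941-31775240, plus strand: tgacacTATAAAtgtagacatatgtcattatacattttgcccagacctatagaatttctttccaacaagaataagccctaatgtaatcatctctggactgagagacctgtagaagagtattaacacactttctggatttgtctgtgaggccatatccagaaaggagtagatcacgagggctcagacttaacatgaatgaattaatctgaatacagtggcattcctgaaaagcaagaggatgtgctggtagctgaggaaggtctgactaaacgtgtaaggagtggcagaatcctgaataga
The next 3 belong to windows higher in MEF, the first pair being the 2 strands of a single interval upstream of Col1a1:
chr11:94742666-94742965, plus strand: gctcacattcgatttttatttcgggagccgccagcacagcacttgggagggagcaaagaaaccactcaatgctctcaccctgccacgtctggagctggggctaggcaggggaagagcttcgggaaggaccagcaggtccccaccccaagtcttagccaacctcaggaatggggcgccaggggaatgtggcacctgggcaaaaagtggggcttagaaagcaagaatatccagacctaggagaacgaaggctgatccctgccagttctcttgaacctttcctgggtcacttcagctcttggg
chr11:94743084-94743383, minus strand: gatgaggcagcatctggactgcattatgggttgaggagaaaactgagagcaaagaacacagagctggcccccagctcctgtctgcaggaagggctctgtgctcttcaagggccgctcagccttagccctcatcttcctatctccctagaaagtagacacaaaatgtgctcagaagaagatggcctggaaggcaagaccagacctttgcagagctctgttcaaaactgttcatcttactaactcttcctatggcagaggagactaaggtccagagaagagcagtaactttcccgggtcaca
chr2:117572097-117572396, plus strand: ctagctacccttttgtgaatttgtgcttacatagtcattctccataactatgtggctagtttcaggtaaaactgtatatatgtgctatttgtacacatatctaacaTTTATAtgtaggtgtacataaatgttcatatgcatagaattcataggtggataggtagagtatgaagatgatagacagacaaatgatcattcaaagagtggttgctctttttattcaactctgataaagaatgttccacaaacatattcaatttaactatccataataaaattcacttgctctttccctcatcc
In the first and second sequences the capitals mark CATTGT or its complement ACAATG, and in the third one and the sixth one TATAAA or its complement TTTATA. The 2 stretches near Col1a1 held no motif that was searched.

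The first sequence lies in chr13:114510001-114520000 on the plus strand, 56116 bases from Hspb3, which encodes a small heat shock protein. This window had 823 reads in MESC and 1 in MEF, a ratio of 631 with a counting interval of 113 to 24951. The second lies in chr13:19610001-19620000 on the minus strand, 63577 bases downstream of Epdr1, with 810 reads in MESC and 2 in MEF, a ratio of 310 (85.7 to 2568). The last of the 3 lies in chr13:31770001-31780000 on the plus strand between the forkhead genes Foxf2 and Foxc1, with 772 reads in MESC and 1 in MEF, a ratio of 592 (106 to 23406). The 3 windows were transcribed almost only from the strand shown: the other strand had 28, 2 and 11 positions in MESC, against 447, 556 and 503 on the strand itself. Their MESC reads were spread over both read lengths of that set, with 406 reads of 35 bases and 417 of 36 bases in the window near Hspb3.

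The Col1a1 interval, chr11:94740001-94750000, lies 47537 bases upstream of Col1a1, the gene of the collagen I alpha 1 chain. Its plus strand had 2 reads in MESC and 128 in MEF, a MEF to MESC ratio of 83.5 (22.6 to 697). Its minus strand had 0 reads in MESC and 124 in MEF, which is at least 53.9-fold higher in MEF when 3 reads stand for the empty MESC library. Both strands were thus higher in MEF, and the Col1a1 body was too, with 75 reads in MESC and 4240 in MEF. The sixth sequence lies in chr2:117570001-117580000 on the plus strand, 52413 bases from Gm13985, with 1 read in MESC and 121 in MEF, a MEF to MESC ratio of 158 (27.8 to 6285).

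Windows passed the minimum in MESC alone in 457 cases, in MEF alone in 162 and in both cell types in 124. The 581 that passed in MESC had a median of 75 positions there (50 to 654), and the 286 that passed in MEF had a median of 70 (50 to 477). In MEF 99 of the 743 windows had 0 reads, and in MESC 6 had 0. The windows held 87123 MESC reads and 43278 MEF reads, or 1.02% of the MESC set and 0.659% of the MEF set outside the mitochondrial genome. That was 27.7% of MESC reads and 23.4% of MEF reads that fell at least 10 kb from genes. Of windows near the minimum, the 104 with 50 to 54 positions had a median log2 ratio of 1.06, and the 132 just outside, with 45 to 49, had 0.80.

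Most windows differed strongly between the cell types, and nearly all of those that did had passed the minimum in 1 cell type alone. Density was taken as RPKM, reads per kb of window scaled to the size of the set, and a window was called when the densities differed at least 4-fold, with 3 reads standing for any lower count. Of the 743 windows 410, or 55.2%, were called in either direction: 300 (40.4%) higher in MESC and 110 (14.8%) higher in MEF. Windows that touch a gene, taken with the same minimum of positions, were called in 14.0% of 40471 cases, with 6.43% higher in MESC and 7.56% higher in MEF. Windows under 10 kb from a gene without touching one lay between, with 29.9% of 1688 called, 17.8% higher in MESC and 12.0% higher in MEF. Of 11378 gene bodies with at least 50 reads, 7.94% were higher in MESC and 5.55% higher in MEF. The median log2 ratio of MESC over MEF was 1.23 over the 743 windows (quartiles -0.67 and 3.82), 0.22 over windows touching a gene and 0.30 over gene bodies.

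The gap between windows far from genes and windows touching one was present at every number of positions. With 50 to 74 positions 57.6% of 387 far windows were called, against 15.3% of 12478 windows touching a gene. With 150 or more positions it was 39 of 83, against 14.2% of 9877. The rule itself shapes the ratios of the far windows: a window that passed in 1 cell type alone had to be lower in the other. Of the 457 that passed in MESC alone 299 were called, of the 162 that passed in MEF alone 109 were called, and of the 124 that passed in both 2 were called.

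The lean toward MESC changed with the reads and the minimum that chose the windows, while the called share moved little. MESC had more reads, and a minimum of 65 MESC positions, scaled to the sizes of both sets, left 561 windows, of which 32.8% were higher in MESC and 19.6% higher in MEF. When only the MESC reads of 35 bases were used and the windows were chosen again, 400 remained, with 22.5% higher in MESC and 30.2% higher in MEF, and the median log2 ratio fell to -0.47. The called share in either direction was 52.4% and 52.8% in these settings, against 14.0% and 15.2% of windows touching a gene chosen in the same way. The 35-base MESC reads numbered 3975430, fewer than the 6571116 of MEF, whereas under the scaled minimum 184 windows remained higher in MESC and 110 in MEF.

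**Figure D1:**
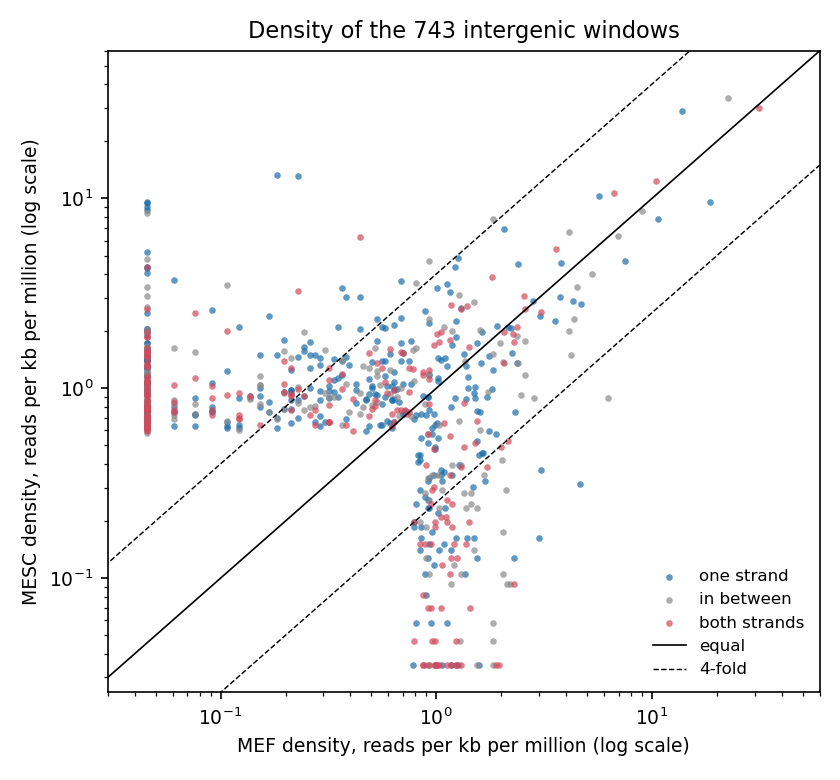
Density of each of the 743 windows in MESC (vertical axis) and MEF (horizontal axis), in RPKM on log scales, coloured by strand balance; counts under 3 reads are drawn at 3 reads. Windows outside the dashed lines differ at least 4-fold: 300 lie above them, on the MESC side, and 110 lie below, on the MEF side.

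In sets not matched for number of positions, windows far from genes were more often transcribed from both strands than windows at genes. The rule looked at each strand alone, so the other strand did not enter it. An interval that passed on both strands was therefore counted on each strand, which holds for 164 of the 743 windows. The shares are per window and not per interval, and their ranges in brackets treat such paired windows as independent. A window was classed as both-strand when the other strand had at least 0.5 times its positions in the library where it had more positions for the size of the set, and as one-strand when it had under 0.1 times. The 743 windows held 214 both-strand (28.8%, 25.6 to 32.2), 186 in between and 343 one-strand windows (46.2%). Of windows touching a gene 17.9% were both-strand and 63.4% one-strand, and of windows under 10 kb from a gene 15.9% and 65.1%. A minimum of 100 positions left 214 far windows, and the both-strand share among them was lower, at 22.4%. The part of the number of positions in the gap to windows at genes was not tested. The other strand had 0 positions beside 148 of the 743 windows. Both-strand windows made up 29.3% of those called higher in MESC (24.2 to 34.8), 40.9% of those called higher in MEF (31.6 to 50.7) and 24.3% of the rest (19.8 to 29.3).

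**Figure D2:**
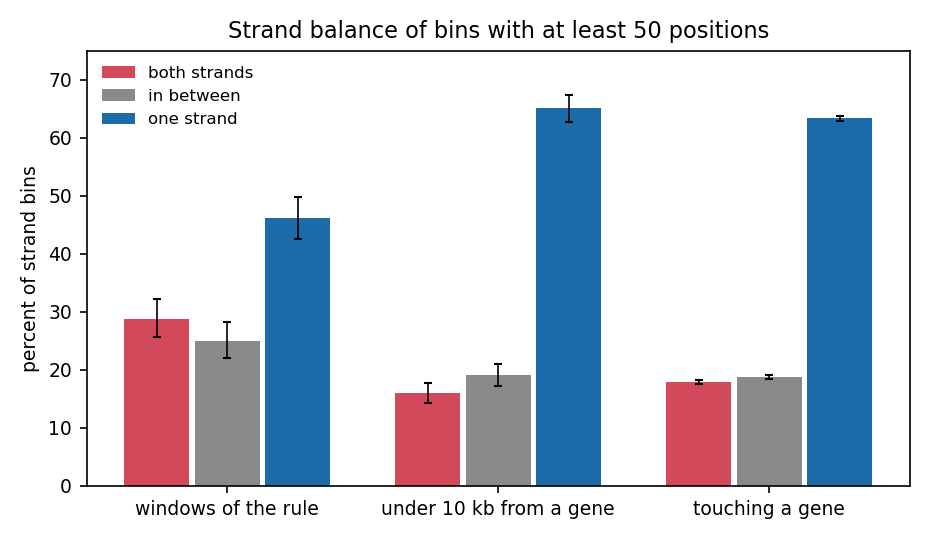
Share of windows, in percent, by strand balance, for the 743 windows far from genes, 1688 windows under 10 kb from a gene and 40471 windows touching a gene, all with at least 50 positions; bars carry 95% Clopper-Pearson intervals. Both-strand windows are 28.8%, 15.9% and 17.9% of the 3 sets, which were not matched for number of positions.

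Both-strand and one-strand windows also differed in shape. In both-strand windows the densest 300 bases held a median of 27.1% of the positions, in windows in between 27.3% and in one-strand windows 15.8%. Of both-strand windows 19.2% had a neighbour of their own strand that also met the rule. The share was 28.5% for windows in between and 55.4% for one-strand windows. The densest 300 bases held at least 10 CpG dinucleotides in 28.0% of both-strand windows and in 5.54% of one-strand windows. One-strand windows thus stood apart, with broader signal and more neighbours along the chromosome, while both-strand windows and those in between were alike in width. The densest stretches were richer in CpG in both-strand than in one-strand windows. The classes were not matched for number of positions.

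In 82 intervals both strands met the rule, which accounts for 164 of the windows. The densest stretches of the 2 strands pointed away from each other in 57 intervals and toward each other in 25, and they lay within 1000 bases in 47, of which 33 pointed away. The log2 ratios of the 2 strands had a correlation of 0.912 over the 82 intervals. These were chosen because each strand passed the minimum in at least 1 of the 2 cell types. Both strands were called higher in MESC in 28 intervals and higher in MEF in 11, and in 0 intervals were they called in opposite directions. In 12 intervals 1 strand alone was called higher in MESC, and in 3 higher in MEF. The gap between the log2 ratios of the 2 strands had a median of 0.46 and reached 5.72.

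The intervals with the most positions on their weaker strand were chr19:12080001-12090000 and chr13:22010001-22020000, which are described among the windows with stacked reads. Next came chr15:81350001-81360000, 20022 bases upstream of Gm5218. Its minus strand had 233 reads in MESC and 91 in MEF, and its plus strand had 329 in MESC and 119 in MEF. The interval chr6:39390001-39400000, near Dennd2a, was called higher in MESC, with 171 reads in MESC and 7 in MEF on the minus strand and 213 in MESC and 5 in MEF on the plus strand. Its minus strand lay 12376 bases downstream of Dennd2a on that gene's strand. The MESC signal there joined the gene end, with at least 10 positions in each full 5 kb piece in between. The interval chr15:74910001-74920000, near the lymphocyte antigen gene Ly6c2, had 374 reads in MESC and 1 in MEF on the minus strand, and 537 in MESC and 29 in MEF on the plus strand. Over 50% of the reads on each of its strands had a second match, so their source cannot be told apart. All 3 intervals were thus higher in MESC on both strands, the first less than 4-fold.

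Neighbouring windows of the same strand formed runs. The 743 windows made 569 runs: 459 of a single window, 75 of 2, 17 of 3, 8 of 4, 9 of 5 and 1 of 6, so that 284 windows (38.2%) had at least 1 neighbour. Within the 110 runs of 2 or more windows the log2 ratios spanned a median of 0.56 and at most 4.80. In 43 of the 110 runs every window was called in 1 direction, and in 0 runs were windows called in opposite directions.

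The longest run covered 60 kb, chr13:12810001-12870000 on the plus strand, between Gm2399 and Prl2c3, a member of the prolactin family. Along its 6 windows it had 26, 20, 12, 29, 30 and 28 reads in MESC and 97, 68, 68, 61, 78 and 60 reads in MEF, in all 3.89-fold more in MEF (3.21 to 4.72). MEF was higher in each of the 6 windows. Its reads matched other places as well: every window in this stretch of chromosome 13 had over 50% of reads whose first 32 bases recur in the genome, so the copy they came from cannot be told apart. The Prl2c3 body, the nearest measured gene, leaned the other way, with a log2 ratio of 4.85.

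The run downstream of Scaf8, which encodes a protein that binds the tail of RNA polymerase II, continued from the gene end for 50 kb, chr17:3210001-3260000 on the plus strand. It had 182, 117, 62, 87 and 63 reads in MESC and 126, 106, 59, 99 and 64 in MEF. The cell types differed little here, with a MESC to MEF ratio of 0.863 (0.759 to 0.981), and the other strand had 3 positions in MESC and 1 in MEF over the whole run. The Scaf8 body had a log2 ratio of 0.26.

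Upstream of the sialyltransferase gene St3gal1, the run chr15:66960001-67010000 on the minus strand led toward the gene. From its far end to the gene it had 42, 23, 28, 31 and 20 reads in MESC and 131, 58, 70, 71 and 72 in MEF, 3.64-fold more in MEF (3.00 to 4.44). Its far end, chr15:67000001-67010000, was a both-strand interval with 33 reads in MESC and 113 in MEF on the plus strand. The St3gal1 body leaned the same way, with a log2 ratio of -1.82.

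Of the 10 runs with at least 5 windows, the others were mostly higher in MESC. The run between BC002059 and Zfp960, chr17:17140001-17190000 on the plus strand, had 1093 reads in MESC and 293 in MEF, 2.86-fold more in MESC (2.51 to 3.26), and 595 of its MESC reads lay in the fourth window. In its windows 61.2% to 89.2% of the reads had a second match, so the copy they came from cannot be told apart either. The run near B230307C23Rik, chr16:98260001-98310000 on the minus strand, had 726 reads in MESC and 239 in MEF, 2.33-fold more in MESC (2.01 to 2.71). The run downstream of Gm4983, chr12:18020001-18070000 on the plus strand, had 480 reads in MESC and 147 in MEF, 2.50-fold more in MESC (2.08 to 3.03), and 87.0% to 94.0% of the reads in its windows had a second match. On the same chromosome the runs near Gm5784, with 572 reads in MESC and 51 in MEF, and Gm6802, with 443 in MESC and 42 in MEF, also had second matches for 64.7% or more of the reads in each window. The run between Prss48 and Sh3d19 on chromosome 3 had 354 reads in MESC and 172 in MEF, with at most 2.56% second matches. The run past Phxr4 on chromosome 9, was higher in MEF and is given with its block.

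**Figure D3:**
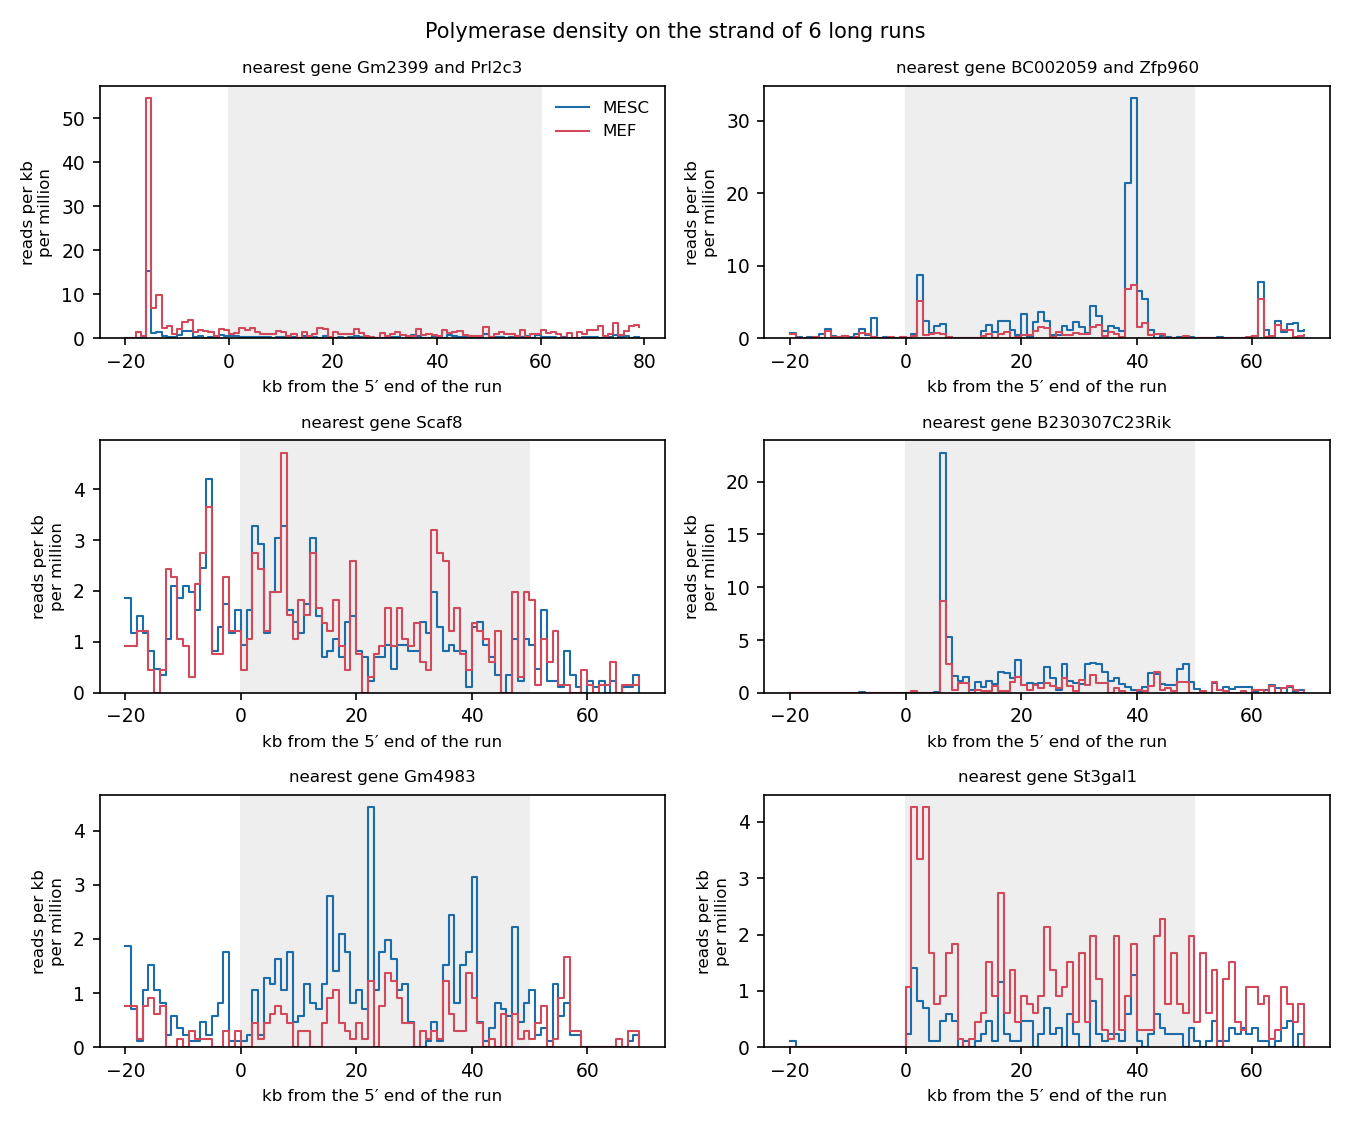
Density in RPKM in steps of 1 kb along the strand of the run of 6 windows and of the 5 runs of 5 windows with the most reads for the size of the sets (of 9 such runs), from 20 kb before the run to 20 kb after it, for MESC and MEF; shading marks the run. The Scaf8 run, at 511 reads in MESC and 454 in MEF, shows the 2 lines side by side, while the St3gal1 run, at 144 in MESC and 402 in MEF, starts abruptly at its 5′ end with the MEF line higher.

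A shorter run lay upstream of the microRNA gene Mirlet7c-2, whose let-7 family is known for its build-up in differentiated cells. The run chr15:85480001-85520000 on the plus strand had 28, 13, 76 and 32 reads in MESC and 111, 58, 413 and 202 in MEF, 6.86-fold more in MEF (5.75 to 8.23). Its window with the most reads, 27032 bases upstream of Mirlet7c-2, was the only window with at least 50 positions in both cell types that was called higher in MEF. RefSeq lists noncoding RNA genes between the same flanking genes here, Lncppara among them.

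Windows were concentrated near the 10 kb limit. The median distance to the nearest gene was 23403 bases for the 743 windows (10022 to 775593) and 72774 for all 194918 windows far from genes. Per 1000 windows at each distance, 11.5 met the rule at 10 to 20 kb, 5.63 at 20 to 50 kb, 2.7 at 50 to 100 kb, 0.946 at 100 to 200 kb and 0.281 beyond. The both-strand share changed little out to 100 kb, with 29.2%, 29.9% and 26.8% in the 3 nearest classes. The 3 farthest windows lay on the minus strand of chromosome 18 at 601831, 611831 and 775593 bases. They had 72, 57 and 59 reads in MESC and 1, 0 and 1 in MEF, so each was seen in MESC almost alone.

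**Figure D4:**
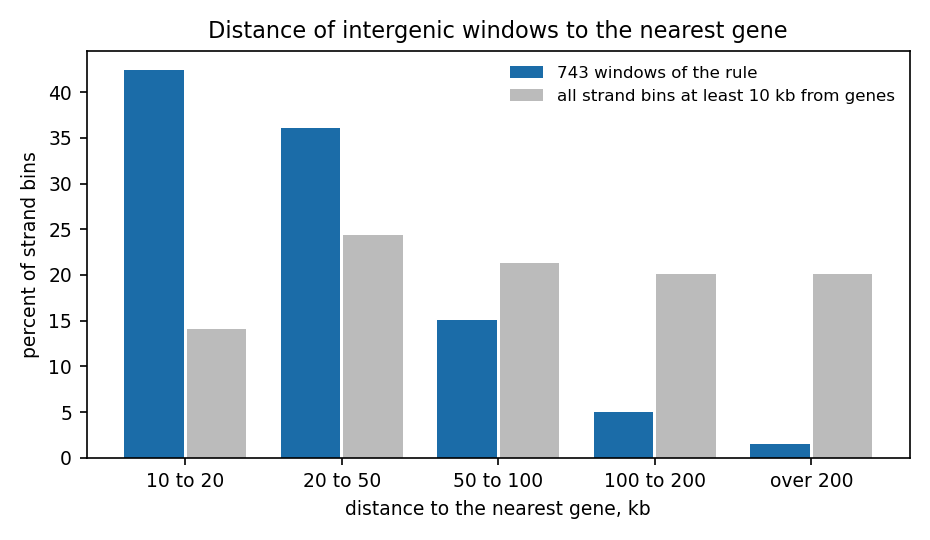
Distance to the nearest gene in kb (horizontal axis) and percent of windows (vertical axis), for the 743 windows and for all windows at least 10 kb from genes. At 10 to 20 kb lie 42.4% of the 743 windows, against 14.1% of all, and beyond 200 kb 1.48%, against 20.1%.

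The windows were unevenly placed around their nearest genes. Downstream on the gene's own strand lay 237 windows (31.9%, against 25.6% of all windows far from genes), and upstream on its strand 216 (29.1%, against 24.4%). Downstream on the opposite strand lay 151 (20.3%, against 25.6%), and upstream on the opposite strand 139 (18.7%, against 24.4%). The both-strand share was 21.5% downstream on the gene's strand and 43.2% upstream on the opposite strand. Windows on the strand of the nearest gene were thus the more numerous, and those on the other strand were more often both-strand.

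Of the 237 windows downstream on the gene's strand, 113 (47.7%, 41.2 to 54.2) joined the gene end without a break, with at least 10 positions in each 5 kb piece in between. Their median distance was 15011 bases, and the farthest lay 54044 bases from Phxr4. An example is chr2:84420001-84430000 on the minus strand, 10227 bases past the end of Ctnnd1, the gene of p120 catenin, with 237 reads in MESC and 307 in MEF. On the other strand it had 0 positions in MESC and 1 in MEF. The Ctnnd1 body had 1085 reads in MESC and 1193 in MEF, a log2 ratio of -0.52, beside -0.76 in the window.

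Each window was set beside the nearest gene whose body had at least 50 reads in 1 cell type, at a median distance of 38632 bases. The log2 ratio of the window had the sign of that gene's in 557 of 743 cases (interval 71.7% to 78.0%), and the correlation across windows was r = 0.518 and rho = 0.521. Both sides leaned to MESC: 506 windows and the nearest measured genes of 496 had a ratio above 1, and of the 557 matches 408 were toward MESC. The 743 windows have 399 such genes among them, so neighbours share a gene, and all points share the 2 libraries and their scaling. With only the first window of each run, r was 0.538 over 569. The correlation was 0.646 within 20 kb (n = 203), 0.564 at 20 to 50 kb (n = 224), 0.504 at 50 to 100 kb (n = 124), 0.358 at 100 to 200 kb (n = 85) and 0.191 beyond (n = 107). The share with the same sign did not fall with distance: it was 77.8%, 70.5%, 77.4%, 70.6% and 79.4% in these classes.

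The correlation with the gene varied with the place of the window. The correlation was 0.852 for the 85 windows that joined the end of the measured gene, and 0.388 for the 151 on that strand downstream that did not join it. The sign matched in 64.7% of the joined windows and in 71.5% of those that did not join, so the 2 measures of likeness were ordered in opposite ways. Upstream windows on the strand of the gene gave 0.682 (n = 227), upstream windows on the opposite strand 0.525 (n = 153) and downstream windows on the opposite strand 0.207 (n = 127). Across strand classes r was 0.624 for both-strand and 0.385 for one-strand windows.

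**Figure D5:**
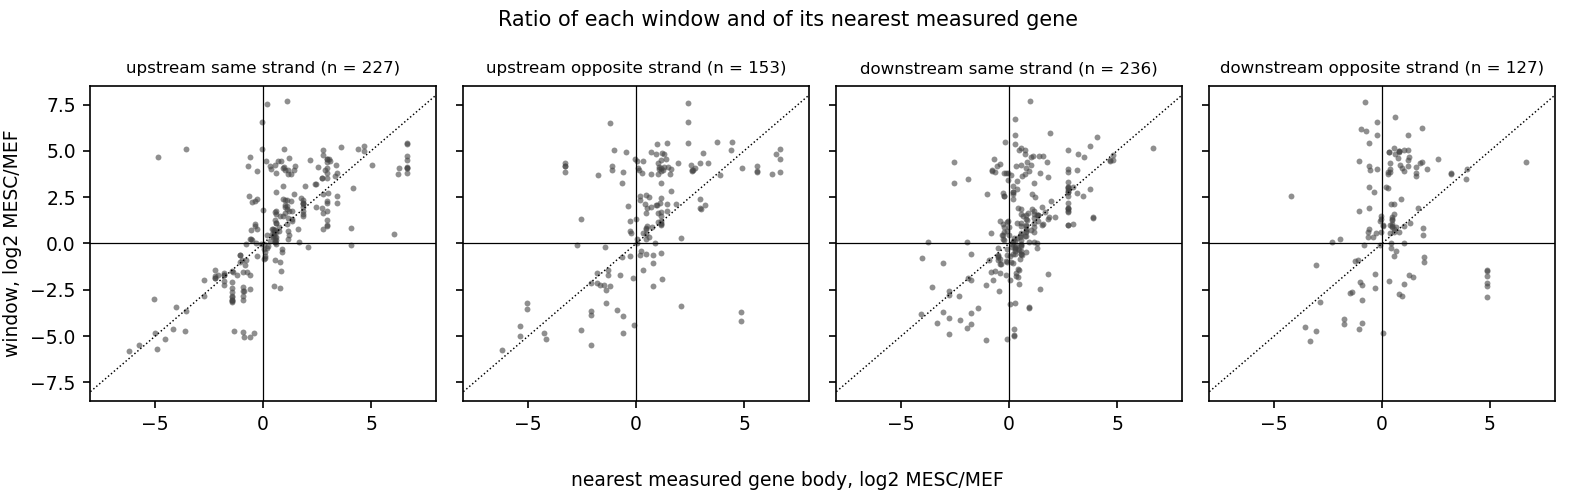
The log2 ratio of MESC over MEF in each window (vertical axis) against that of the body of its nearest measured gene (horizontal axis), in 4 panels by the place of the window; the dotted line marks equal ratios. Of the 4 panels the correlation is highest for upstream windows on the gene's strand (r = 0.682, n = 227) and lowest for downstream windows on the opposite strand (r = 0.207, n = 127).

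The nearest measured genes of called windows were called more often than gene bodies at large, yet most were within 4-fold. Of the 300 windows called higher in MESC, 101 (33.7%) had a nearest measured gene that was also at least 4-fold higher in MESC, 190 (63.3%) one within 4-fold, and 9 (3.00%) one at least 4-fold higher in MEF. Of the 110 called higher in MEF, 37 (33.6%) had a gene at least 4-fold higher in MEF, 67 (60.9%) one within 4-fold, and 6 (5.45%) one at least 4-fold higher in MESC. Of all 11378 gene bodies 86.5% were within 4-fold. Beside the window near Hspb3 the nearest measured gene was Arl15, which had 2456 body reads in MESC and 866 in MEF. Beside the window near Foxf2 it was Gmds, with 406 in MESC and 536 in MEF, so the window and the gene leaned opposite ways.

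Genes that define the 2 cell types had some of these windows around them. Of 40 fibroblast and matrix genes, 4 were the nearest measured gene of 8 windows. All 8 were called higher in MEF, against 14.8% of the 743. Each had at most 15 reads in MESC and so met the rule through MEF alone. Of the 162 windows that passed in MEF alone, 109 were called higher in MEF. The 8 include neighbours and both strands of an interval. These genes were Col1a1 and Col1a2, which encode the chains of collagen I, Col6a2, which encodes a collagen VI chain, and Lox, whose enzyme cross-links collagen. Upstream of Col1a2, chr6:4400001-4410000 had 13 reads in MESC and 79 in MEF on the plus strand, and 11 in MESC and 77 in MEF on the minus strand. Upstream of Lox, chr18:52720001-52730000 on the plus strand had 5 reads in MESC and 121 in MEF, and the Lox body had 20 in MESC and 636 in MEF. The window chr10:76110001-76120000 on the minus strand, upstream of Col6a2, had 1 read in MESC and 65 in MEF.

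Of 35 pluripotency genes only Sall1, which encodes a zinc finger factor, was the nearest measured gene of such windows. It had 3 of them, all called higher in MESC, against 40.4% of the 743. All 3 met the rule through MESC alone. Of the 457 windows that passed in MESC alone, 299 were called higher in MESC. The windows beside Sall1 had 53, 55 and 111 reads in MESC and 2, 0 and 1 in MEF. They lay 71146, 21146 and 11146 bases downstream of the gene, and the Sall1 body had 351 reads in MESC and 29 in MEF. In MEF, then, the windows around Sall1 were close to empty.

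Further windows stood out by their low ratios or their MEF positions. Beside Mical2, whose product oxidises actin, chr7:119340001-119350000 on the plus strand had 8 reads in MESC and 151 in MEF, 24.6-fold more in MEF (12.2 to 58.1), and the Mical2 body had 165 in MESC and 2303 in MEF. The window chr3:145340001-145350000 on the plus strand, 27051 bases from the matricellular gene Cyr61, had 27 reads in MESC and 304 in MEF, 14.7-fold more in MEF (9.90 to 22.7). It lay 24943 bases downstream of the long noncoding RNA gene Gm17501 on that gene's strand and joined its end without a break. Cyr61 lies on the opposite strand. The Cyr61 body had 224 reads in MESC and 729 in MEF, a log2 ratio of -2.09 beside -3.88 in the window. The window chr10:120130001-120140000 on the plus strand, near 4921513I03Rik, had 8 reads in MESC and 140 in MEF, and its nearest measured gene, Msrb3, had 158 body reads in MESC and 1455 in MEF. In these 3 cases the window and its nearest measured gene were both higher in MEF. The window with the most positions in MEF, chr17:46990001-47000000 on the minus strand upstream of BC032203, was shared instead, with 668 reads in MESC and 702 in MEF.

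The windows with the most positions in MESC or the highest ratios lay in other surroundings. The window chr3:96110001-96120000 on the minus strand, 11821 bases upstream of the Fc receptor gene Fcgr1, had 1125 reads in MESC and 15 in MEF. This was 57.5-fold more in MESC (34.7 to 103). RefSeq lists 4 tRNA genes between its flanking genes, which does not place them in the window. Its reads numbered 1.70 per position, under the limit of 2 for the stacked windows below. It held 0 matches to the B box, the tRNA gene element searched there. The window chr16:25520001-25530000 on the plus strand, 97570 bases past Tprg and before Trp63, had 1144 reads in MESC and 12 in MEF, 73.1-fold more in MESC (41.7 to 142). Near Dclre1a, a gene of DNA crosslink repair, chr19:56580001-56590000 on the plus strand had 448 reads in MESC and 1 in MEF, a ratio of 343 (61.3 to 13596). A further pair of windows had reads that match other places, so their source cannot be told apart. These are chr4:145850001-145860000 on the plus strand near Rex2, with 746 reads in MESC and 3 in MEF, and chr16:3120001-3130000 on the plus strand, with 722 in MESC and 0 in MEF. With 3 reads standing for the empty library, the second was at least 185-fold higher in MESC. In the window near Rex2 100.0% of reads had a second match, and in the other 94.3%.

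A second match was common among the windows. Of their reads 24.7% in MESC and 16.3% in MEF began with 32 bases that occur again in the genome, while of every 200th read on chromosomes 1 to 19 it was 7.27% in MESC and 8.46% in MEF. Over 50% of the reads had a second match in 130 windows, and 0 reads had one in 227. Such windows clustered: they were 64.9% of the 77 windows on chromosome 12 and 45.1% of the 91 on chromosome 13. Among the 528 windows with under 10% of such reads, 38.1% were called higher in MESC and 19.1% higher in MEF.

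Dense blocks of windows differed in this respect. Between 18 and 21 Mb of chromosome 12 lay 46 windows, 25 called higher in MESC and 0 in MEF, and 40 of them had mostly reads with a second match. Between 65 and 66 Mb of chromosome 13 lay 13 windows, 12 called higher in MESC, and these 12 had mostly such reads. Between 13 and 14 Mb of chromosome 9 lay 10 windows, 9 called higher in MEF, and 0 had mostly such reads. This last block holds the run past Phxr4, chr9:13250001-13300000 on the plus strand, with 13, 13, 14, 32 and 9 reads in MESC and 71, 61, 81, 69 and 61 in MEF. The blocks were chosen after their counts were seen, and other dense blocks were called less often or as often. In chr13:74000001-75000000 lay 14 windows, 3 called higher in MESC and 0 in MEF. In chr17:17000001-18000000 lay 11, with 0 called in either direction. In chr5:110000001-111000000 lay 8, with 6 called higher in MESC and 0 in MEF. Over all 743 windows 40.4% were called higher in MESC and 14.8% higher in MEF.

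A small group of windows held stacked reads. The median window had 1.09 reads per position, and 31 had over 2. Of these 31 windows 29.0% were called, against 55.2% of all 743. The most stacked was chr11:103930001-103940000 on the minus strand, 54168 bases from Crhr1, with 822 reads at 77 positions in MESC and 1218 reads at 71 positions in MEF, and 93.3% of its reads had a second match. On chromosome 13, chr13:22010001-22020000, next to the histone gene cluster, had 2565 reads in MESC and 2060 in MEF on the plus strand and 912 in MESC and 437 in MEF on the minus strand. On chromosome 19, chr19:12080001-12090000, near the oxysterol-binding protein gene Osbp, had 2907 reads in MESC and 1483 in MEF on the minus strand and 1054 in MESC and 683 in MEF on the plus strand. On chromosome 2, chr2:181650001-181660000 on the plus strand had 2484 reads in MESC and 909 in MEF. All 6 of these stacked windows were within 4-fold between the cell types.

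Stacked windows held a tRNA-like sequence more often than the other windows did. A match to the B box, the conserved internal promoter element of tRNA genes, was added to the motifs after the values were seen and searched on both strands of each 10 kb interval. It was in 13 of the 31 stacked windows (41.9%), in 29 of the 712 others (4.07%) and in 1.51% of 96586 intervals far from genes that held no window. An interval with windows on both strands counts once for each strand, while the intervals without a window count once. The most stacked window, chr11:103930001-103940000, held 0 matches. RefSeq lists tRNA genes between the same flanking genes for 16 of the 28 stacked windows that could be placed by their neighbours, and for 3.16% of all 727 placed windows. At chr13:22010001-22020000 it lists 21, and at chr19:12080001-12090000 it lists 8. RefSeq lists a long noncoding RNA gene between the flanking genes for 65.1% of the 727 placed windows, and for 80.0% of 961 other intervals placed in the same way. The list is by neighbouring genes and not by coordinate, so it does not show that the RNA gene lies in the window.

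The densest 300 bases were richer in GC and CpG than other intergenic sequence. Their median GC content was 46.7%, against 43.7% in the central 300 bases of the same windows and 40.0% in the central 300 bases of 96586 other intervals far from genes. They held 5.62 CpG dinucleotides on average, against 3.28 in the windows' centres and 2.00 in the other intervals. At least 10 CpG were present in 17.0% of the densest stretches, against 4.98% of the centres and 1.18% of the other intervals.

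Motifs were searched on both strands of the densest stretches and of the centres of the other intervals. The AP-1 motif TGANTCA was in 9.29%, against 8.90%, and the E box CACGTG in 3.63%, against 2.36%. The octamer ATGCAAAT was in 1.62%, against 3.03%, the SOX-like CATTGT in 16.7%, against 19.9%, and TATAAA in 15.7%, against 30.2%. In the central 300 bases of the windows themselves, TGANTCA was in 10.1% and CACGTG in 4.04%, both above the densest stretches. There ATGCAAAT was in 2.56%, CATTGT in 15.7% and TATAAA in 19.9%. The base composition of the sets differs, and its part in these shares was not tested. TGANTCA was in 27 of the 300 stretches of windows called higher in MESC and in 12 of the 110 called higher in MEF. It was in 30 of the 333 within 4-fold. In the same order, CATTGT was in 54, 12 and 58 stretches, and TATAAA in 53, 17 and 47. ATGCAAAT was in 6, 2 and 4, and CACGTG in 9, 2 and 16. Whether these shares differ by direction was not tested.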

How the data were processed

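Run-on RNA of MESC (3 samples) and MEF (2 samples) was sequenced. Per the series design text, reads were aligned to mm9 with Eland and reads in annotated rRNA-like repeats were removed. The version of Eland is not given in the sources used here, nor is how duplicates or reads matching several places were handled. The deposited read files of the authors hold 1 line per read, so the unit is a raw read count with no normalization, and the samples of a cell type are pooled. Other deposited files were left unused.

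Reads were counted by 5′ position in 10 kb bins per strand and scaled to reads outside the mitochondrial genome (8571395 in MESC, 6571116 in MEF). Genes came from the GENCODE annotation of NCBIM37, which is mm9. Gene bodies ran from 1000 bases after the start to the end of models of at least 2000 bases. A difference was called at 4-fold with a floor of 3 reads; the pooled files allow no replicate test, so the edgeR test planned for separable samples was not made. Intervals are 95% Clopper-Pearson intervals, conditional on the summed reads for ratios, and PCR copies are not independent molecules. Counting and calling were tested on simulated data. Second matches were found with the first 32 bases of each read. RefSeq names came from a table of another build, used for neighbouring genes only. Python 3.11.15, pandas 2.3.3 and scipy 1.17.1 were used.

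The members and lists were chosen with earlier results of these data known. Named windows are the 6 runs with the most windows (ties by reads in both sets for their size, which picked 5 of 9 runs of 5), the 5 with the most positions in each cell type, the 6 highest and 6 lowest ratios among windows with at least 100 positions, the 5 with the most positions on the weaker strand, the 3 farthest from a gene and the 3 with the most reads per position. Windows near listed genes, the run at Mirlet7c-2 beyond its named window, the other 4 runs of 5 windows, the run at Phxr4 among them, the plus strand of the intervals at Gm5218, Ly6c2 and Dennd2a and the far end of the St3gal1 run on the plus strand are named in addition. Alternatives covered scaling, duplicates, minimum positions, distance, bin borders, read length, run gaps, neighbour type, second matches and stacked reads.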

Additional observations from a re-analysis of the deposited data

Results flagged for a closer look

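Chromosome X lies outside the 743 windows, which come from chromosomes 1 to 19. By the same rule, 4 of its 13900 windows far from genes were transcribed, or 0.288 per 1000, with 2 called higher in MESC and 0 in MEF. The window chrX:160480001-160490000 on the minus strand, 14071 bases upstream of Car5b, had 219 reads in MESC and 1 in MEF. The window chrX:104650001-104660000 on the minus strand had 206 reads in MESC and 158 in MEF. The interval chrX:12920001-12930000 met the rule on both strands, with 160 reads in MESC and 29 in MEF on the plus strand and 119 in MESC and 57 in MEF on the minus strand. It was flagged as signal in data that the comparisons did not use.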

How the results depend on the processing

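No paired analysis was possible because the reads of each cell type are pooled and carry no sample name, and for the same reason no replicate could be left out. Of 59 alternative values, 39 stayed within the set limits, 19 moved and 1 changed sign. The median log2 ratio, 1.23, was 0.93 when gene bodies were centred at 0, 0.76 with the MESC minimum scaled to its reads, 0.76 for windows with under 10% second matches and -0.47 when the windows were chosen again with MESC reads of 35 bases, which kept 400 windows and 90 called higher in MESC. The scaled minimum left 184 called higher in MESC. A minimum of 100 positions left 214 windows, 88 called higher in MESC and 17 in MEF, with 22.4% both-strand, 32.2% in runs and a median distance of 19420 bases. A distance of at least 20 kb left 428 windows, 177 called higher in MESC and 72 in MEF, with a median distance of 37328 bases and 27.3% downstream on the gene's strand. Allowing a gap of 1 bin put 42.7% of windows in runs, and counting protein-coding neighbours only gave a median distance of 28297 bases. The called share in either direction ranged between 49.1% and 58.2% over all settings tried. The scaled minimum, the second-match limit, the limit on reads per position, the 36-base reads and the new choice with 35-base reads for the calls and the ratio were chosen after seeing the data. Ratios rest on the floor of 3 reads in 19 windows with fewer reads in MESC and in 172 with fewer in MEF; 457 windows had passed in MESC alone and 162 in MEF alone. Among 582 windows with at least 50 MESC reads, the 35-base and 36-base reads differed at least 4-fold in 8.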

Other observations

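Beside 9 of the 300 windows called higher in MESC and 6 of the 110 called higher in MEF, the nearest measured gene was at least 4-fold the other way. Past the homeobox gene Emx2, chr19:59680001-59690000 on the plus strand had 83 reads in MESC and 2 in MEF, 140153 bases downstream, while the log2 ratio of the Emx2 body was -2.56. Upstream of Ttc29, a run of 4 windows on the plus strand, chr8:80590001-80630000, had 57, 72, 71 and 79 reads in MESC and 0 in MEF in each window, at least 20.2-fold higher in MESC for the fourth window alone against a floor of 3 reads. These windows were picked after their values were seen.

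The microRNA gene Mir31 had windows on both strands upstream of it. On the minus strand, which is the gene's own, chr4:88570001-88580000 had 195 reads in MESC and 233 in MEF, and chr4:88580001-88590000 had 172 in MESC and 272 in MEF. In the next interval, chr4:88590001-88600000, the plus strand had 18 reads in MESC and 73 in MEF.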
